A study of Homo sapiens with 6 samples.

Results

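The genes described here are 10 members of the fibroblast growth factor (FGF) system, namely the ligand-family genes FGF2, FGF4, FGF8, FGF13 and FGF19, the receptor genes FGFR1, FGFR2, FGFR3 and FGFR4, and FGFBP3, which encodes an FGF-binding protein. They were chosen by name, with earlier results of these data known, from the 48183 gene names of the deposited count table. Each matched exactly 1 Ensembl identifier, and all 10 passed the filter on low counts that left 26497 names for testing. Poly(A) RNA-seq was available for 6 bulk libraries of human embryonic stem cells (ESCs), 4 of them naive and 2 primed. The labels give the cell line as H1, whereas the methods of the study name H9, and the counts were not used to check which is right.

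All libraries came from cells with the EOS-GFP reporter, a transgene read as a sign of the naive state. Of the naive libraries, 2 came from EOS cells induced with AICAR, an activator of AMP-activated protein kinase (AICAR 1 and AICAR 2). Another came from EOS cells induced with valproic acid, a histone deacetylase inhibitor (VPA), and another from CA-p38 EOS cells, which carry a doxycycline-inducible, constitutively active form of p38 in a piggyBac vector, had been enriched by sorting for its mCherry marker, and were treated with doxycycline (CA-p38). The primed libraries were 1 of EOS cells and 1 of CA-p38 EOS cells, neither taken through naive induction, grown without feeders in StemFit AK02N. Per the study, the CA-p38 EOS line had been given doxycycline when it was made, to show the mCherry marker for sorting. AICAR and doxycycline were given in PXGL medium, which contains the MEK inhibitor PD0325901, XAV939, Go6983 and LIF, while VPA was given in Ndiff227 with PD0325901 and LIF. After induction the naive cells were grown further in PXGL, per the labels on mouse embryonic fibroblasts although the study also describes feeder-free growth of CA-p38 cells, and sorted for CD75 and SUSD2, and the primed cells were not sorted. Pluripotent state, medium and sorting therefore changed together and cannot be told apart, nor can feeders where they were used. No label says that libraries of a group came from separate cultures, and per the study the AICAR libraries were taken 1 passage apart, so p-values measure only the spread between these libraries.

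FGF ligands bind receptor tyrosine kinases at the cell surface together with heparan sulfate, and the activated receptor signals through adaptor proteins to the RAS, RAF, MEK and ERK cascade. That cascade switches on its own brakes, among them Sprouty proteins and dual-specificity phosphatases. Primed human pluripotent cells are commonly maintained with FGF2 in the medium, and media for naive cells commonly contain a MEK inhibitor. FGF4 is the ligand made by the epiblast of the blastocyst. FGF13 belongs to the FGF homologous factors, which are not secreted as classical ligands, so its place among the ligands here is one of family and not of function.

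The libraries held 46823699 to 54277064 counts. All 8 naive markers (KLF17, DPPA3, DPPA5, SUSD2, KLF4, TFCP2L1, DNMT3L and ALPG) were higher and all 6 primed markers lower in naive than in primed libraries, so the labelled states matched their markers. SUSD2 was itself used for the sort. Markers of other cells moved as well: the 8 fibroblast markers summed to 39.0–80.8 CPM (counts scaled to library size, with TMM factors) in naive cells against 192–210 CPM in primed cells, and 1 of them was higher and 4 lower. COL1A1 and COL1A2, both lower, gave most of that sum, and TWIST2 was the marker that was higher (7.76 ± 1.84 CPM in naive against 0.582 ± 0.565 CPM in primed cells). LUM, POSTN and PDGFRB had 0 counts in at least 1 naive library. The 6 hypoblast markers summed to 35.9–45.1 CPM against 154–183 CPM (1 higher, 4 lower, one of them COL4A1, which gave most of the sum). GATA4 was the hypoblast marker that was higher, at 10.7 ± 2.45 CPM in naive against 0.470 ± 0.665 CPM in primed cells, with 0 counts in 1 primed library. The 6 trophectoderm markers summed to 12.5–15.2 CPM against 5.44–5.64 CPM (3 higher), with CDX2 and HAND1 at 0 counts in 1 primed library and CGA in 1 naive library. The 5 neuroectoderm markers summed to 91.4–94.8 CPM against 434–515 CPM (2 lower, one of them NES, which gave nearly all of the sum), with MAP2 at 0 counts in 1 naive library. The part of these cells in the results below was not tested, and in bulk RNA fewer cells of a type and less RNA per cell cannot be told apart.

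Upstream sequences from the RefSeq promoter table (GRCh38.p14) were used for 6 of the 10 members, and FGF4, FGF8, FGF19 and FGFR1 were not analysed for sequence. FGFR3 and FGFBP3 are shown, the receptor with the largest rise and the member with the largest fall in naive cells, as the 250 bases before the start site, 5′ to 3′ on the gene's strand. Capitals mark the GC box GGGCGG on either strand. The FGFR3 window is chr4:1793043-1793292 (plus strand), and the FGFBP3 window is chr10:91909487-91909736 (minus strand).
FGFR3: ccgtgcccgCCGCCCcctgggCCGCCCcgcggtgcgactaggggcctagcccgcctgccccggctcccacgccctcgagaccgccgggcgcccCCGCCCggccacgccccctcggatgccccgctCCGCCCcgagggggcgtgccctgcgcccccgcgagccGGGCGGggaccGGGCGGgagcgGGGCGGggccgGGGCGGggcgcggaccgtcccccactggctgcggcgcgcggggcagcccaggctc
FGFBP3: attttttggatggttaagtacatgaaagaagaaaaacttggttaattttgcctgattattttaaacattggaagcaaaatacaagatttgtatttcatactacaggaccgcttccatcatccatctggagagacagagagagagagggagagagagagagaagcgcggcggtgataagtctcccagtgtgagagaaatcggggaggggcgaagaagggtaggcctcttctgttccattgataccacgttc
The FGFR3 window held 8 GC boxes and 40 CpG dinucleotides at a GC content of 86.8%. In the FGFBP3 window there were 0 GC boxes and 7 CpG dinucleotides at 43.2% GC. Over 35116 RefSeq promoter windows of the same length, the median was 11 CpG dinucleotides at 58% GC, and 42.6% held at least 1 GC box. The outermost start of FGFR2, a gene whose level did not pass the test between the states, had 42 CpG dinucleotides and 3 GC boxes. Its other windows had 3 to 7 CpG dinucleotides at 42.8% to 50% GC. FGF2, which fell, had 33 CpG dinucleotides and 3 GC boxes at 75.2% GC. The windows of FGF13, which also fell, had 29 CpG dinucleotides at 70.4% GC and 0 at 36.4%. Those of FGFR4, which rose, had 24 at 79.6% and 2 at 57.2%. A GC-rich window was thus not confined to members that rose. Of the other motifs searched on both strands, TATAAA was present in 10.7% of all windows, GCCNNNGGC in 19.8% and ATGCAAAT in 1.63%, and neither window shown held any of them. A match describes these letters only.

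Between naive and primed cells, the FGF genes changed in both directions and 9 of 10 passed the test. FGF4, FGF8, FGFR3 and FGFR4 were higher in naive cells, and FGF2, FGF13, FGF19, FGFR1 and FGFBP3 were lower. FGFR2 was not called. Calls come from edgeR's quasi-likelihood test of 4 naive against 2 primed libraries, with Benjamini-Hochberg adjustment over all 26497 names and a threshold of 0.05. Across all names tested, 26% were called higher and 27% lower, beside which stand 4 and 5 of the 10 members. The same 9 members had no overlap between naive and primed libraries, as did 64.9% of all names tested, so separation of the groups was common in this comparison. The median log2 fold change was −0.52 over the 10 members and 0.11 over all names. Where the AICAR libraries are given as a pair of values, AICAR 1 comes before AICAR 2.

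**Figure D1:**
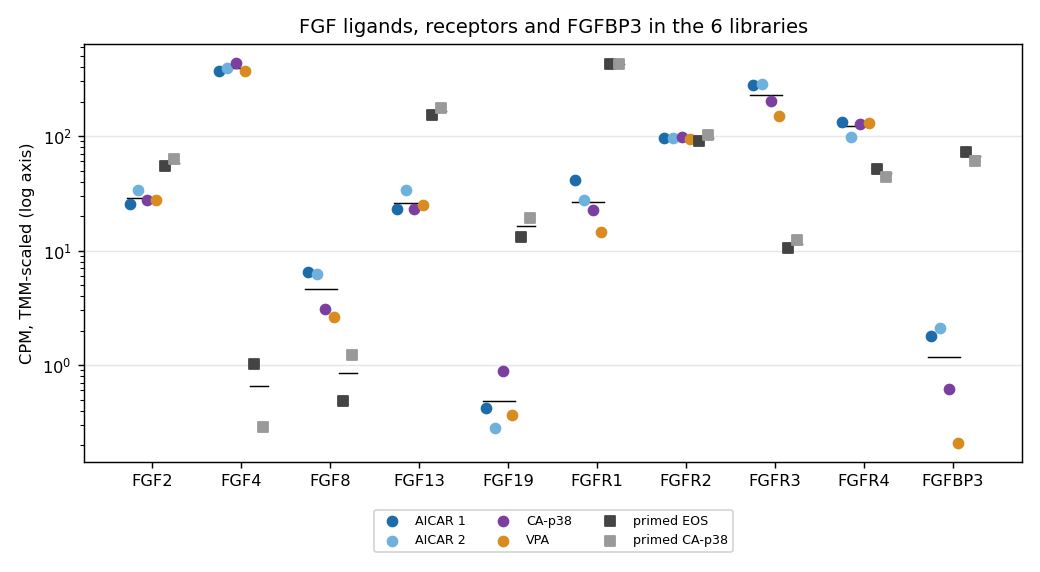
TMM-scaled CPM of each gene (log axis) in the 4 naive libraries (circles) and the 2 primed libraries (squares), with black lines at the group means. The groups are separate for every gene but FGFR2, whose libraries all lie between 90.7 and 102 CPM.

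Among the ligands, FGF4 had the largest change. FGF4 (ENSG00000075388, chr11:69771022-69775341, minus strand, GENCODE on GRCh38) measured 371 and 395 CPM in the AICAR libraries, 369 CPM after VPA and 434 CPM after CA-p38, and 1.03 CPM in the primed EOS library and 0.286 CPM in the primed CA-p38 library. The naive libraries lay close together, with the highest 1.18 times the lowest, and no library of either group came near the other. The means were 392 ± 30.5 CPM (SD, n = 4) and 0.658 ± 0.526 CPM (SD, n = 2), a log2 fold change of 9.21 (SE 0.32, 95% interval 8.51–9.91, edgeR adjusted p = 1.89e-10), or 592-fold. The size of this fold rests on few primed counts, 51 in the primed EOS library and 14 in the primed CA-p38 library, with values of 10.40 on the log2 scale when primed EOS was left out and 8.58 when primed CA-p38 was.

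FGF8 (ENSG00000107831, chr10:101770109-101780371, minus strand), a morphogen of gastrulation and brain patterning, also rose, but from and to low levels. It had a level of 2.62 CPM in VPA cells, 3.09 CPM in CA-p38 cells and 6.53 and 6.30 CPM in the AICAR libraries, while primed EOS cells had 0.485 CPM and primed CA-p38 cells 1.23 CPM. Every naive library was above both primed libraries, and the AICAR libraries were the highest. The log2 fold change was 2.43 (SE 0.50, 95% interval 1.35–3.52, edgeR adjusted p = 0.00117), with values of 1.90 when primed EOS was left out (adjusted p = 0.0188) and 3.26 when primed CA-p38 was (adjusted p = 0.00162).

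FGF2 (ENSG00000138685, chr4:122826682-122898236, plus strand), the ligand commonly supplied to primed cultures, was lower in naive cells. It measured 25.5 and 33.9 CPM in the AICAR libraries, 27.4 CPM after VPA and 27.4 CPM after CA-p38, and 54.4 CPM in the primed EOS library and 62.5 CPM in the primed CA-p38 library. Its log2 fold change of −1.03 (SE 0.14, edgeR adjusted p = 3.2e-05) was the smallest among the 9 called members, and the libraries did not overlap. NUDT6 lies antisense to FGF2 and had 177 to 332 counts per library against 1384 to 3058 for FGF2.

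FGF13 (ENSG00000129682, chrX:138614727-139222777, minus strand) had a level of 24.9 CPM in VPA cells, 23.1 CPM in CA-p38 cells and 22.9 and 33.9 CPM in the AICAR libraries, while primed EOS cells had 153 CPM and primed CA-p38 cells 176 CPM. All naive libraries were lower, by a log2 fold change of −2.65 (SE 0.15, edgeR adjusted p = 1.31e-08), and AICAR 2 was the highest of them. The antisense gene FGF13-AS1 had 50 to 77 counts in naive and 569 and 770 counts in primed libraries. Whether the counting used strand is not given in the sources used here, so reads of such gene pairs cannot be told apart where they overlap.

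FGF19 (ENSG00000162344, chr11:69698238-69704022, minus strand), an endocrine FGF that acts through FGFR4 with a klotho co-receptor, was low in all naive libraries. It measured 0.423 and 0.282 CPM in the AICAR libraries, 0.363 CPM after VPA and 0.891 CPM after CA-p38, and 13.3 CPM in the primed EOS library and 19.3 CPM in the primed CA-p38 library. The naive libraries held 14 to 45 counts and the primed libraries 656 and 944. This was a log2 fold change of −5.05 (SE 0.36, 95% interval −5.83 to −4.27, edgeR adjusted p = 1.08e-07), which is 33.1-fold lower.

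FGF19 and FGF4 are neighbours on chromosome 11, on the same strand and 66999 bases apart, and they changed in opposite directions. Genes on either side, given because of their position, did not move as a block. CCND1, which encodes cyclin D1, was lower (log2 fold change −3.24, SE 0.22, edgeR adjusted p = 6.51e-08), and LTO1 had a log2 fold change of 0.29 (SE 0.16, adjusted p = 0.153). FGF3, on the far side of FGF4, had at most 20 counts in any library and was not tested.

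**Figure D2:**
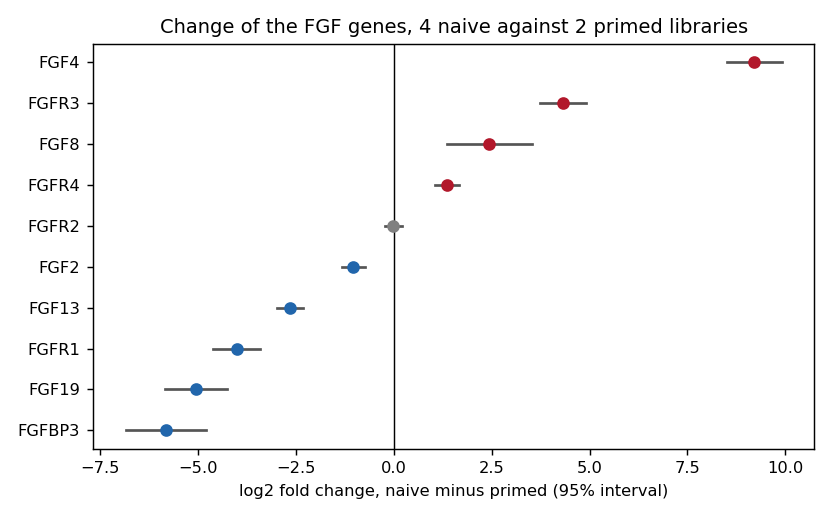
Log2 fold change of each gene, naive minus primed, with its 95% interval, from edgeR with 4 naive and 2 primed libraries (red, higher; blue, lower; grey, not called). The values run from 9.21 for FGF4 to −5.82 for FGFBP3, and only the interval of FGFR2 includes 0.

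The receptors split. FGFR1 (ENSG00000077782, chr8:38400215-38468834, minus strand), the receptor with the highest level in primed cells, had a level of 14.5 CPM in VPA cells, 22.4 CPM in CA-p38 cells and 41.5 and 27.8 CPM in the AICAR libraries, while primed EOS cells had 430 CPM and primed CA-p38 cells 425 CPM. Both primed libraries were nearly equal and far above all naive libraries, which ranged 2.86-fold among themselves. LETM2, antisense to FGFR1, had 88 to 150 counts per library against 760 to 21266 for FGFR1. FGFR1 fell by a log2 fold change of −4.01 (SE 0.27, 95% interval −4.60 to −3.41, edgeR adjusted p = 7.37e-08), which is 16.1-fold lower.

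FGFR3 (ENSG00000068078, chr4:1793293-1808872, plus strand), the receptor with the GC-rich upstream window above, moved the other way. It measured 277 and 287 CPM in the AICAR libraries, 148 CPM after VPA and 200 CPM after CA-p38, and 10.5 CPM in the primed EOS library and 12.3 CPM in the primed CA-p38 library. The lowest naive library was still far above both primed libraries. FGFR3 rose, with a log2 fold change of 4.32 (SE 0.27, 95% interval 3.73–4.91, edgeR adjusted p = 3.25e-08), or 20.02-fold.

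FGFR4 (ENSG00000160867, chr5:177086905-177098144, plus strand), which binds FGF19 among others, had a level of 130 CPM in VPA cells, 128 CPM in CA-p38 cells and 134 and 98.3 CPM in the AICAR libraries, while primed EOS cells had 51.4 CPM and primed CA-p38 cells 44.2 CPM. AICAR 2 was set apart below the other naive libraries and yet above both primed libraries. For FGFR4 the log2 fold change was 1.36 (SE 0.14, edgeR adjusted p = 4.16e-06).

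FGFR2 (ENSG00000066468, chr10:121478332-121598458, minus strand) measured 95.4 and 96.0 CPM in the AICAR libraries, 93.8 CPM after VPA and 98.3 CPM after CA-p38, and 90.7 CPM in the primed EOS library and 102 CPM in the primed CA-p38 library. The 4 naive libraries lay between the primed libraries. The log2 fold change was −0.01 with a 95% interval of −0.23 to 0.21 (SE 0.10, edgeR adjusted p = 0.939), which leaves room for changes within that interval, and the sign turned under 4 alternatives. Counts are per gene, and splice forms of the receptors, which differ in the ligands they bind, were not separated.

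FGFBP3 (ENSG00000174721, chr10:91906584-91909486, minus strand) encodes a secreted protein that binds FGFs and releases them from the matrix, and it had the largest fall. It had a level of 0.210 CPM in VPA cells, 0.614 CPM in CA-p38 cells and 1.79 and 2.11 CPM in the AICAR libraries, while primed EOS cells had 73.0 CPM and primed CA-p38 cells 60.2 CPM. The naive libraries held 11 to 105 counts and differed 10.1-fold among themselves, the widest relative range of the 10 members, yet all were far below the primed libraries. The log2 fold change was −5.82 (SE 0.48, 95% interval −6.85 to −4.78, edgeR adjusted p = 3.91e-07), which is 56.3-fold lower.

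To compare levels between genes, CPM was divided by the length in kilobases of each gene's joined exons. In naive cells the order of these per-length levels began with FGF4 at 124 ± 9.62 CPM per kb (SD, n = 4), FGFR3 at 47.1 ± 13.6 and FGFR4 at 25.5 ± 3.39, which did not overlap with each other. FGFR2 (5.10 ± 0.0985), which was apart from FGF2 below it, came next. FGF2 (4.20 ± 0.540) and FGF8 (3.21 ± 1.43) overlapped, as did FGF8 and FGFR1 (1.54 ± 0.659). FGF13, at 1.26 ± 0.252, overlapped with FGFR1, and FGFBP3 (0.463 ± 0.358) and FGF19 (0.269 ± 0.150) were last and overlapped. With the longest transcript as length, FGFR3 (34.4–66.5 CPM per kb) and FGFR4 (31.8–43.2) overlapped in naive libraries.

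In primed cells FGFBP3 (26.1 ± 3.52 CPM per kb, SD, n = 2) and FGFR1 (24.8 ± 0.195) led and overlapped. FGFR4 (9.94 ± 1.05), FGF19 (8.94 ± 2.35), FGF2 (8.59 ± 0.849) and FGF13 (7.94 ± 0.769) formed a group in which each overlapped with the next. FGFR2 (5.13 ± 0.439), FGFR3 (2.35 ± 0.266), FGF8 (0.593 ± 0.364) and FGF4 (0.208 ± 0.166) came last, each apart from the next. With the longest transcript, FGFR1 led alone in primed libraries (68.4 and 69.1 CPM per kb) and FGFBP3 followed (23.6 and 28.6). By either length FGF4 stood first in naive and last in primed cells.

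The make-up of the receptor pool was then compared, with CPM per kb of joined exons unless another length is named. As a share of the summed level of the 4 receptors, FGFR3 was 48.3% after VPA, 55.4% after CA-p38 and 61.9% and 68.5% in the AICAR libraries, against 5.07% and 6.06% in primed EOS and primed CA-p38. FGFR1 was 1.33% to 2.61% in naive and 58.6% and 59.0% in primed libraries. These groups did not overlap. FGFR3 was the largest share in all 4 naive libraries, but with the longest transcript as length FGFR4 was the largest after VPA (45.5% against 37.4% for FGFR3), and FGFR1 was the largest in both primed libraries under each length. FGFR4 took 23.7% to 42.5% and 21.95% and 25.03%, which overlapped. That overlap depended on the length, since FGFR4 took 27.3% to 45.5% against 14.3% and 16.4% with the longest transcript, and 19.3% to 33.5% against 7.57% and 8.82% when counts were not divided by length. FGFR2 took 5.48% to 7.87% in naive and 11.3% and 13.0% in primed libraries, a difference of −5.58 percentage points that became −1.15 with the longest transcript and 4.05 with no length.

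Of the summed ligand-family level, FGF4 was 91.8% to 94.6% in naive libraries and 1.40% and 0.310% in primed EOS and primed CA-p38. The primed sum was spread over FGF19 (31.2% and 36.3%), FGF2 (34.3% and 31.5%) and FGF13 (31.7% and 29.04%), each of which took at most 3.67% of any naive sum. This even spread did not hold with no length, where FGF13 made up 68.4% of the primed sum on average, FGF2 24.3% and FGF19 6.70%. FGF8 was 1.47% to 3.57% in naive and 1.44% and 2.91% in primed libraries, so its share overlapped although its own level rose. With no length it was 0.617% to 1.53% against 0.218% and 0.473%, which did not overlap. The shares within a library are not independent, since they sum to the whole.

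By an exact two-sided permutation test, 7 of these 9 shares gave p = 0.0667 (0.0857 after Benjamini-Hochberg adjustment), which is the smallest p that 4 against 2 libraries allow. The exact test gave p = 0.267 for FGFR4 and p = 0.600 for FGF8. For the receptors, the direction of the difference in the summed level was set by the length. The sum was 79.2 ± 12.9 CPM per kb of joined exons (SD, n = 4) in naive and 42.3 ± 0.537 (SD, n = 2) in primed libraries (exact permutation p = 0.0667). With the longest transcript it was 111 ± 15.3 against 101 ± 0.683 CPM per kb (exact p = 0.533), with VPA at 92.1, below both primed libraries. With no length it was lower in naive libraries, at 473 ± 70.7 against 583 ± 1.16 CPM (exact p = 0.133). For the ligand-family genes the sum was higher in every naive library under each length, at 133 ± 9.59 against 26.3 ± 4.16 CPM per kb of joined exons, 5.06 times as high, but 452 ± 32.1 against 241 ± 25.98 CPM with no length, 1.88 times as high (exact p = 0.0667 for both). With 4 and 2 libraries, this exact test has no p under 0.05 for a single sum or share.

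**Figure D3:**
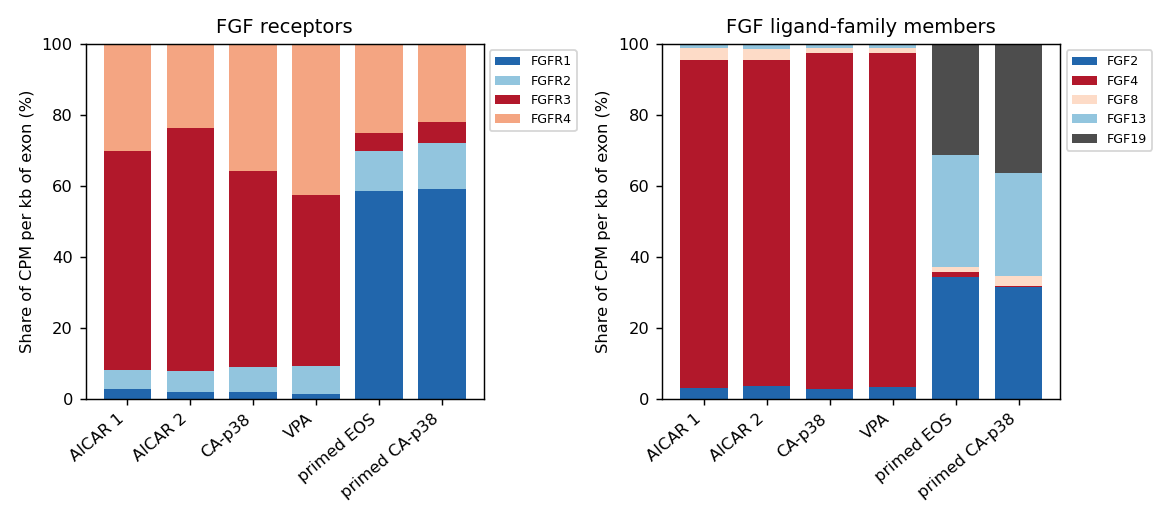
Share (%) of each gene in the summed CPM per kb of joined exons of the 4 FGF receptors (left) and of the 5 FGF ligand-family genes (right), a bar for each library. FGFR3 and FGFR4 fill most of the naive receptor bars and FGFR1 most of the primed ones, and FGF4 makes up at least 91.8% of each naive ligand bar.

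The induction methods were then compared, to see whether naive cells made in different ways carried the same FGF genes. This used the 2 AICAR libraries and the single CA-p38 and VPA libraries, which were assumed to vary like the AICAR and primed pairs. The contrasts with CA-p38 also differed in parental line, and those with VPA in induction medium. Per the study, the length of induction differed between methods, and AICAR cells were taken at later passages. None of these can be told apart from induction method. FGFBP3 was higher in the AICAR libraries than in the VPA library, which has no spread of its own (1.79 and 2.11 against 0.210 CPM, log2 difference 3.20, SE 0.38, 95% interval 2.38–4.02, edgeR adjusted p = 0.0437). It was the only member called, where 0.00755% of all names (2 of 26497) were called. The call rests on 11 counts in VPA, and it was lost with library totals (adjusted p = 0.0850), with limma-voom (0.633) and without AICAR 2 (0.157).

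FGFR1 and FGFR3 had smaller differences of the same sign, although they moved in opposite directions between the states. FGFR1 was at 41.5 and 27.8 CPM in AICAR and 14.5 in VPA cells (log2 difference 1.25, SE 0.22, edgeR adjusted p = 0.144), and FGFR3 was at 277 and 287 against 148 CPM (log2 difference 0.93, SE 0.16, adjusted p = 0.144). Neither was called with the settings used here. However, edgeR called FGFR1 with median-ratio factors (adjusted p = 0.0420), and both with no filter beyond 1 count (FGFR1, 4.29e-07; FGFR3, 5.59e-04). With either primed library left out, the log2 differences were 1.26 for FGFR1 and 0.93 for FGFR3. In those fits the spread between libraries came from the AICAR pair alone. DESeq2 called both, and limma-voom called FGFR3. FGF8 had a log2 difference of 1.29 (SE 0.50, adjusted p = 0.656). For FGF4 and FGFR2 the differences were 0.05 (95% interval −0.51 to 0.62) and 0.03 (−0.32 to 0.38), which leaves room for changes within these intervals.

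Between AICAR and CA-p38 cells, edgeR called 0 members and 0.00% of all names, with 4 members and 1105 names at an unadjusted p under 0.05. DESeq2 called 1 member, FGFBP3 (log2 difference 1.66, adjusted p = 0.0418), and 10 names in all, and limma-voom 0. FGFBP3 was also called by edgeR with no filter beyond 1 count (adjusted p = 0.00329). With either primed library left out, its log2 difference was 1.66, and the spread between libraries again came from the AICAR pair alone. Between CA-p38 and VPA cells, edgeR again called 0 members and 0.00% of names, with 4 members and 1644 names at an unadjusted p under 0.05, and DESeq2 and limma-voom also called 0 members. The largest differences there were in FGFBP3 (log2 difference 1.53, SE 0.47) and FGF19 (1.29, SE 0.54), both resting on fewer than 50 counts a library. These contrasts share libraries and are not independent of each other.

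**Figure D4:**
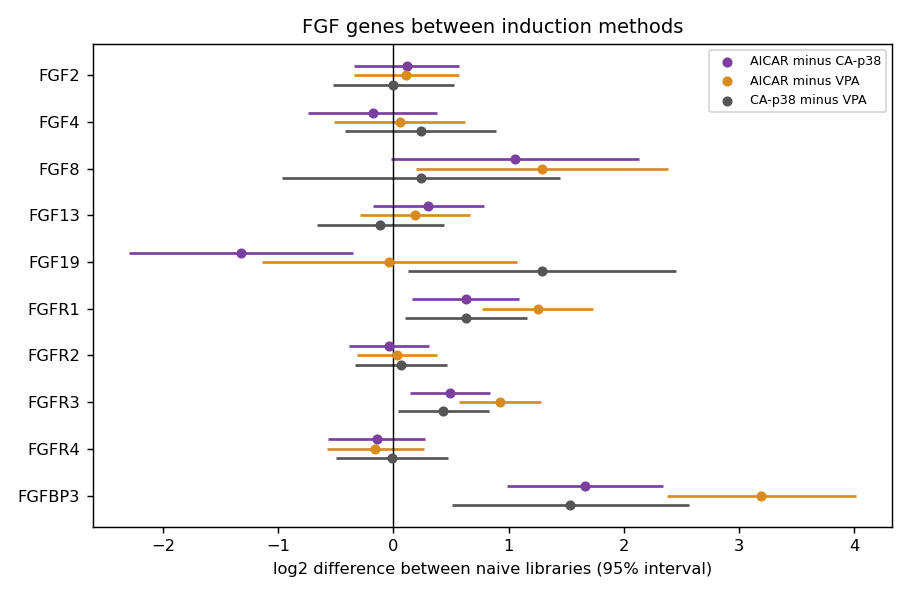
Log2 difference of each gene between naive libraries made by different induction methods, with 95% intervals from edgeR (2 AICAR libraries, 1 CA-p38 and 1 VPA library). FGFBP3 is farthest from 0 at 3.20 for AICAR minus VPA, and FGF2, FGF4, FGF13, FGFR2 and FGFR4 have intervals that include 0 in all 3 contrasts.

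The parental lines allowed a further comparison, of the change in CA-p38 EOS cells (1 naive and 1 primed library, with no spread of their own) with that in EOS cells (3 naive, 1 primed). The CA-p38 EOS line was induced only with CA-p38 and the EOS line only with AICAR or VPA. Parental line and induction method therefore cannot be told apart in this comparison. By edgeR's interaction test 0 of the 10 members were called, where 0.00377% of all names (1 of 26497) were, and 2 members had an unadjusted p under 0.05. FGF4 rose by 10.56 on the log2 scale in the CA-p38 EOS line and by 8.52 in the EOS line (difference 2.04, SE 0.35, edgeR adjusted p = 0.316). DESeq2 called it (difference 2.02, adjusted p = 0.0460) and limma-voom called 0 members. FGF8 rose by 1.33 and 3.40 (difference −2.07, SE 0.91, edgeR adjusted p = 0.9999). Most of both differences lay in the primed libraries, where the ratio of primed EOS to primed CA-p38 was 3.60 for FGF4 (95% counting interval 1.96–7.04) and 0.395 for FGF8 (0.235–0.644). For FGFR1 that ratio was 1.01 (0.992–1.03). These intervals cover counting error only.

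The rest of the pathway was described with 6 lists that hold 83 further genes, of which 72 were tested. Of these, 12 were higher in naive cells, 45 were lower and 15 were not called. In the same test, 26% of all names were higher and 27% were lower. The lists were chosen with earlier results of these data known, so the counts describe them and are no independent test. Without primed EOS the number called higher was 6, and it was 8 to 11 when any other library was left out.

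The feedback genes fell without exception. All 13 feedback and output genes were lower in naive cells, at a median of −3.94 on the log2 scale, and they summed to 62.1–107 CPM against 1082–1251 CPM in primed libraries. DUSP6, a phosphatase of ERK that is also among the primed markers above, fell from 282 ± 19.4 CPM (SD, n = 2) to 0.168 ± 0.1004 CPM (SD, n = 4), a log2 fold change of −10.68 (SE 0.22, edgeR adjusted p = 9.23e-12). SPRY4, a Sprouty inhibitor of receptor tyrosine kinase signalling, fell from 221 ± 25.7 to 0.289 ± 0.224 CPM (log2 fold change −9.58, SE 0.28, adjusted p = 5.25e-11). The naive media contained a MEK inhibitor, and medium and state cannot be told apart in this design.

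Heparan sulfate, the co-factor of FGF binding, is carried by glypicans, syndecans and perlecan. Of 10 carriers tested out of 11, 9 were lower and 1 higher, at a median of −3.14 on the log2 scale. GPC4 fell from 497 ± 103 to 8.68 ± 3.65 CPM (log2 fold change −5.84, SE 0.30) and SDC2 from 31.5 ± 0.255 to 0.687 ± 0.367 CPM (−5.51, SE 0.31), whereas SDC4 rose from 46.6 ± 0.244 to 128 ± 9.36 CPM (1.45, SE 0.11). Of 13 enzymes tested out of 14 that make or edit heparan sulfate, 9 were lower, 3 higher and 1 not called. The extracellular sulfatase SULF1 fell (log2 fold change −6.12, SE 0.23) while its paralogue SULF2 rose (0.77, SE 0.15). The 6-O-sulfotransferase HS6ST2 fell (−4.19, SE 0.33) and the N-deacetylase/N-sulfotransferase NDST2 rose (0.53, SE 0.18).

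The signalling core moved less. Of 20 adaptors and ERK cascade genes, 6 were higher, 9 lower and 5 not called, at a median of −0.16 on the log2 scale. GAB1, a docking protein, rose from 25.2 ± 0.426 to 78.5 ± 9.01 CPM (log2 fold change 1.64, SE 0.14), and the adaptor FRS3 rose from 2.99 ± 0.636 to 5.57 ± 0.918 CPM (0.90, SE 0.27). CBL, a ubiquitin ligase that marks receptors for degradation, and the adaptor SHC1 fell by 1.95 (SE 0.12) and 1.78 (SE 0.10) on the log2 scale.

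Of the 17 other FGF genes, 12 were tested and 2 were higher, 4 lower and 6 not called. FGF22 (log2 fold change 1.81, SE 0.48) and FGF10 (1.504, SE 0.44) were higher, at 1.44 ± 0.552 and 1.48 ± 0.330 CPM in naive cells. FGF12 (−2.02, SE 0.23) and FGF11 (−1.35, SE 0.29), which are FGF homologous factors like FGF13, were lower. So were FGF16 (−5.18, SE 0.95) and FGF17 (−3.08, SE 0.63), with larger folds at low levels. FGF16 fell from 1.29 ± 0.198 to 0.0322 ± 0.0644 CPM and FGF17 from 2.13 ± 1.79 to 0.251 ± 0.198 CPM. FGF12 fell from 16.2 ± 1.01 to 3.99 ± 0.913 CPM and FGF11 from 12.2 ± 4.66 to 4.81 ± 1.39 CPM. In primed cells FGF12 was thus near FGF19 (16.3 ± 4.28 CPM), but neither FGF12 nor FGF11 is part of the ligand-family sum above. Of 8 co-receptors and binding proteins, 4 were tested and only FGFRL1, a receptor without a kinase domain, was called (lower, log2 fold change −0.34, SE 0.13, edgeR adjusted p = 0.0384). KLB, the klotho co-receptor of FGF19, named here after its value was seen, was at 1.56 ± 0.339 CPM in naive and 0.885 ± 0.223 CPM in primed cells (log2 fold change 0.82, SE 0.38, adjusted p = 0.0890).

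**Figure D5:**
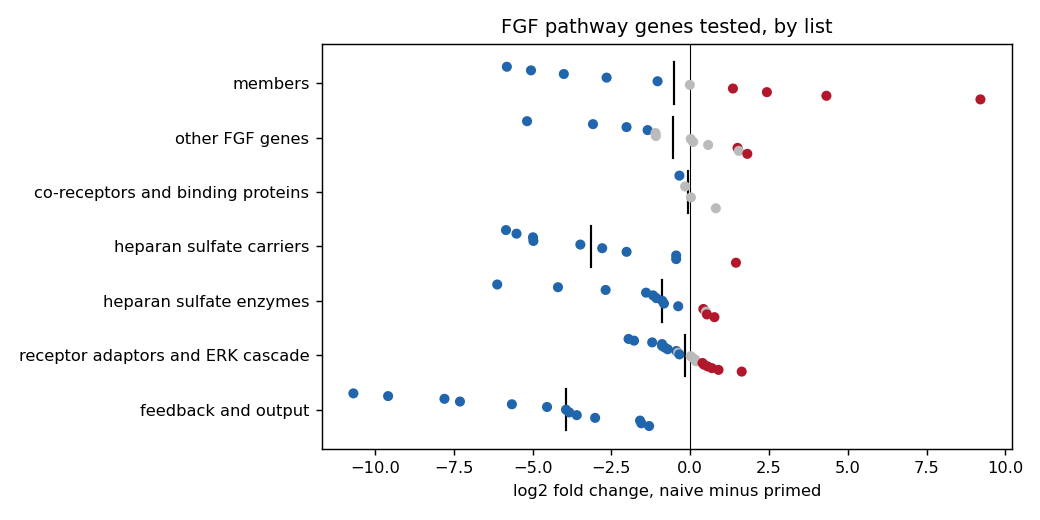
Log2 fold change, naive minus primed, of each tested gene of the 10 FGF genes and the 6 pathway lists (red, higher; blue, lower; grey, not called), with a black line at each list's median. All 13 feedback and output genes lie below 0, and the 10 FGF genes are spread from −5.82 to 9.21.

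Finally, the genes whose pattern over the 6 libraries was closest to each member were found by the root mean square difference of mean-centred log2(CPM + 0.5) among 12604 genes averaging at least 5 CPM. The patterns rest mostly on the contrast of the states. FGF4 was closest to KHDC3L (0.28) and DPPA3 (0.28), FGF8 to TET2 (0.26) and NCOA1 (0.27), and FGF2 to MPP5 (0.04) and ZNF621 (0.04). FGF13 was closest to CBR1 (0.07) and BCAT1 (0.07), and FGF19 to PODXL (0.16) and ITGA5 (0.17). Among the receptors, FGFR1 was closest to SMPDL3B (0.24) and TCF7L1 (0.25), FGFR2 to NFX1 (0.02) and KPNA6 (0.02), FGFR3 to ZNF727 (0.12) and AC134878 (0.19), and FGFR4 to WDSUB1 (0.06) and GNB2 (0.06). FGFBP3 was closest to MARCKS (0.24) and, at a greater distance, NAP1L3 (0.37). AC134878, a name built from a clone accession, averaged 5.22 CPM. Its log2 fold change was 11.64, against 4.32 for FGFR3, so its closeness depends on the 0.5 added to CPM. That 0.5 also weighs on other members with low levels in a group. Among them were FGF4, at 0.658 CPM in primed cells, and FGF19, at 0.490 CPM in naive cells. The log2 fold change was 10.52 for KHDC3L against 9.21 for FGF4, and −4.11 for PODXL against −5.05 for FGF19.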

How the data were processed

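Poly(A) RNA of 4 naive and 2 primed libraries was prepared with a stranded SMART-Seq kit. The deposited values are whole-number counts per Ensembl gene identifier: the authors trimmed reads with Trim Galore 0.4.4 and cutadapt 1.15, mapped them with Bowtie2 to human cDNA and noncoding RNA sequences (GRCh38) and summed alignments by gene. The submitters' processing notes also name RSEM and limma. Use of strand in counting is not given in the sources used here. Another 23 columns hold other studies' samples and were left unused.

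Of the table, 26 spike-in rows were left out, and 61196 identifiers were summed by gene name to 48183 names. Names built from a clone accession can merge different genes. Groups came from the sample labels. Depth was 46823699 to 54277064 counts, at which 3 counts equal 0.0552 to 0.0613 CPM. The states were compared by edgeR 4.0.16 under R 4.3.3 (quasi-likelihood test, TMM scaling, filterByExpr, prior count 0.125, common dispersion 0.0563), with Benjamini-Hochberg adjustment over 26497 names. Induction methods, and the interaction of state with parental line, used the same test with a mean for each. Gene models came from GENCODE on GRCh38. Shares were tested by exact permutation in Python 3.11.15. Pathway genes are named by rule, the 2 largest called changes in each direction per list among genes averaging at least 1 CPM, and the 2 genes closest to each member in pattern. KLB, FGF16 and FGF17 are named outside this rule.

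DESeq2 1.42.0, limma-voom (limma 3.58.1), other scalings and filters, the parental line as a block and leaving out each library were tried as alternatives. The members and lists were chosen with earlier results of these data known.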

Additional observations from a re-analysis of the deposited data

Results flagged for a closer look

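FGFR4 in the naive libraries stood out because AICAR 2 was far from the others, at 98.3 CPM where the other naive libraries were at 128 to 134 CPM. The gap to the nearest library was 0.851 of the group's whole range, above Dixon's critical value for 4 samples. It was found among 19 values tested in this way (the 10 CPM levels and 9 shares in the naive libraries), and chance alone marks about 1 in 20 groups. Without AICAR 2 the log2 fold change of FGFR4, naive minus primed, was 1.45 in place of 1.36, and it was still called by edgeR's quasi-likelihood test.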

How the results depend on the processing

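The 9 members called between naive and primed cells were called in the same direction under all 15 alternatives, with log2 fold changes of 8.58 to 10.40 for FGF4, 1.90 to 3.26 for FGF8, 4.20 to 4.47 for FGFR3 and 1.26 to 1.46 for FGFR4. Those of FGFR1 ran from −4.32 to −3.82, of FGF19 from −5.52 to −4.75, of FGFBP3 from −6.29 to −5.48, of FGF13 from −2.80 to −2.54 and of FGF2 from −1.14 to −0.92. FGFR2 was never called (lowest adjusted p = 0.444), and its value of −0.01 turned to 0.091 with library totals, to 0.026 when all libraries had to hold 10 counts and to 0.016 with the parental line as a block. With a library left out it ran from −0.108 to 0.087 (without primed CA-p38). The median of all names ran from 0.03 to 0.20.

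Of the 83 pathway genes, 6 to 11 were called higher and 39 to 44 lower when a library was left out, with 6 without primed EOS. Between AICAR and VPA cells 1 member and 2 of all names were called. These became 2 members and 14 names with median-ratio factors, 0 and 0 with library totals, 3 and 86 with DESeq2, 3 and 215 with no filter beyond 1 count, and 0 to 3 members with a library left out (0 members and 0 names without AICAR 2, 3 and 252 without primed EOS, 3 and 244 without primed CA-p38). Between AICAR and CA-p38 cells 0 and 0 became 1 member and 10 names with DESeq2, 1 and 57 with no filter beyond 1 count, and 0 to 1 members with a library left out (1 and 67 without primed EOS, 1 and 68 without primed CA-p38). DESeq2 called 1 member, FGF4, and 23 names in the interaction of state and parental line. In the comparisons of induction methods without a primed library, the spread between libraries came from the AICAR pair alone. The cause of these shifts was not tested.

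The choice of length moved the shares. With the longest transcript, the difference between naive and primed libraries was −64.5 percentage points for FGFR1, −1.15 for FGFR2, 44.6 for FGFR3, 21.1 for FGFR4 and −30.5 for FGF13. With no length, it was −67.8 for FGFR1, 4.05 for FGFR2, 18.3 for FGFR4, 86.5 for FGF4, −62.6 for FGF13, −18.0 for FGF2 and −6.60 for FGF19. With a library left out it was −30.8 to −28.1 for FGF13, −31.1 to −28.3 for FGF2, −36.1 to −31.0 for FGF19 and −0.479 to 0.990 for FGF8, whose groups overlapped (0.256 with all libraries; below 0 without AICAR 1, AICAR 2 or primed EOS). The ratio of the summed levels, naive over primed, was 1.10 for the receptors with the longest transcript, 0.811 for the receptors and 1.88 for the ligand-family genes with no length, and 4.55 to 5.70 for the ligand-family genes with a library left out. Leaving out CA-p38 or VPA removes the contrasts that need it. Depth limits FGF4 and FGF8 in primed libraries, which held 14 to 60 counts, and FGF19 and FGFBP3 in naive libraries, which held 11 to 105 counts. No paired analysis by replicate number was possible because the labels give naive and primed libraries no shared numbers.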
